A study of Mus musculus with 14 samples.

Results

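The cells described here are neurons of the apical spiral ganglion at embryonic day 16 (E16) that carry transcripts of Uts2b, Neurod1, Rgs4 and B230216N24Rik, a group given the working name late immature neurons. A cell of the 3 E16 apex libraries was a member when its values of these 4 genes, taken back from the logarithm and summed, came to at least 4 per 10000 UMIs (unique molecular identifiers, counted transcripts). This rule chose 230 of 1368 apical cells, which are 40 of 328, 112 of 544 and 78 of 496 cells in libraries 1, 2 and 3, out of 5441 cells in the series. The comparison group was 699 apical cells (200, 240 and 259) in which the sum was 0, and 439 cells (88, 192 and 159) lay in between. Members are called rule-positive cells below, and the comparison group sum-0 cells.

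All libraries come from CD1 mice, a wild-type outbred strain, and hold cells of the spiral ganglion, the sensory ganglion that carries sound signals from the cochlea to the brainstem. Each portion of the E16 ganglion has 3 libraries, biological replicates of pooled tissue from different litters, made after the ganglia had been divided at the middle turn into an apical and a basal part. E14 has 3 libraries of whole ganglia, also dissociated with trypsin, whereas the 3 E18 and 2 P1 (postnatal day 1) libraries were made with papain, so enzyme and age cannot be told apart there. Some sensory epithelium and mesenchyme was left on the dissected ganglia.

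The spiral ganglion matures from base to apex, so at a given embryonic age apical neurons tend to be younger than basal ones. Neurod1 encodes a basic helix-loop-helix (bHLH) transcription factor that acts downstream of Neurog1 in otic neuroblasts and is needed for their survival and differentiation. Uts2b encodes the precursor of a urotensin peptide, Rgs4 encodes a protein that speeds the end of G protein signalling, and B230216N24Rik is annotated as a processed transcript with no protein. Igfbp2, the remaining gene used to mark these cells, encodes a secreted protein that binds insulin-like growth factors and has no part in the rule.

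In GRCm38 (GENCODE M21), Uts2b lies at chr16:27353322-27370239, Neurod1 at chr2:79452521-79456751, Rgs4 at chr1:169741477-169747642 and B230216N24Rik at chr1:98031116-98057680, all on the minus strand. The 250 bases before the start of Uts2b and Rgs4 are shown because both genes mark the same cells as a bHLH factor, and bHLH proteins bind the E-box, CANNTG. The sequences are from RefSeq (GRCm38.p6), read 5′ to 3′ on the minus strand, with each CANNTG in capitals. They cover chr16:27370240-27370489 and chr1:169747643-169747892.
Uts2b: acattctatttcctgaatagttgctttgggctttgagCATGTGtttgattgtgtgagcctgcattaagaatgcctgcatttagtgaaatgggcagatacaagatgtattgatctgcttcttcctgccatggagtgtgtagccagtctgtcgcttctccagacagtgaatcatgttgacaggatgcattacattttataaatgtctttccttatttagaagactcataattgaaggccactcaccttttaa
Rgs4: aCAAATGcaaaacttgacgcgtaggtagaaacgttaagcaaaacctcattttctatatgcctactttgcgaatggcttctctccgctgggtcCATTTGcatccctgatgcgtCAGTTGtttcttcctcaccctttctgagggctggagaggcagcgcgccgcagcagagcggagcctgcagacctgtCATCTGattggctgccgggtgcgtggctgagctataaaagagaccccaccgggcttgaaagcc
The Uts2b window holds 1 match and the Rgs4 window 4. The windows of Neurod1 and B230216N24Rik, not printed here, hold 1 and 2. Whether a bHLH protein binds any of these windows was not tested. The motif reads alike on both strands in its fixed letters, and 66.0% of 27025 RefSeq windows of this length hold at least 1 match, while 3.86% hold 4 or more. The match of Rgs4 nearest its start is CATCTG, which is CAGATG on the other strand, and 14.5% of windows hold either form.

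The rule itself fixes that rule-positive cells have UMIs of at least 1 of the 4 genes and that sum-0 cells have none of any, so the following values are a description with no test. Uts2b reached 207, 357 and 320 CPM (UMIs per 1000000 UMIs of the summed cells of a library) in rule-positive cells, against 21.8, 35.9 and 28.9 CPM in the cells in between. Neurod1 stood at 173, 161 and 281 CPM and Rgs4 at 155, 169 and 141 CPM. B230216N24Rik, the most even of them, stood at 302, 279 and 269 CPM. Single cells rarely rested on 1 gene: 23 members had UMIs of 1 rule gene, 89 of 2, 80 of 3 and 38 of all 4. Near the threshold, the lowest sum inside was 4.02 and the highest outside was 3.98 per 10000, with 48 members between 4 and 5 and 76 cells outside between 3 and 4, so the group is a range drawn on a continuous value.

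Each rule gene was also followed in cells chosen by the other 3. The 4 genes were put together because they mark the same cells in these data, so these values describe that choice and carry no test. Chosen by the other 3 genes, 170 rule-positive cells had Uts2b at 160, 356 and 309 CPM, and 746 sum-0 cells had 11.7, 11.8 and 16.5 CPM. The log2 difference for Uts2b was 4.43 (SE 0.19). Neurod1 differed by 3.22 (SE 0.19) and B230216N24Rik by 3.04 (SE 0.16). Rgs4 had the smallest difference, 2.50 (SE 0.21), with 114, 144 and 132 CPM against 27.1, 28.7 and 17.2 CPM. The sum-0 cells of these left-out rules still had 11.7 to 36.4 CPM of the gene tested, a level that includes any free RNA.

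Rule-positive cells made up 12.2%, 20.6% and 15.7% of the apical libraries. The same rule took 1.28%, 3.43% and 0.489% of the basal libraries, which are 3, 16 and 2 cells. At E14 it took 43.7%, 73.4% and 53.0% of cells, at E18 between 1.85% and 5.26%, and at P1 0.380% and 2.49%. The apical libraries lay below every E14 library and above every later or basal one. The rule divides by the depth of a cell, so the shares were also taken after thinning each cell to 3000 UMIs and asking for at least 2 UMIs of the rule genes. They were then 8.95%, 18.3% and 13.6% in the apex, with a mean of 13.6% ± 4.68 (SD, n = 3), and 1.28%, 1.32% and 0.491% in the base, with a mean of 1.03% ± 0.469 (SD, n = 3). The shares rest on the genes that chose the cells, so they are given with no test. Thinning left out 315 of 466 cells of basal library 2, whose median depth was low, and 14 or fewer of each other E16 library. At 5000 UMIs only 11 cells of that library remained, 2 of which had the genes, and the basal mean was 6.24% ± 10.3, with an apical mean of 16.6% ± 5.38 (SD, n = 3 each).

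**Figure D1:**
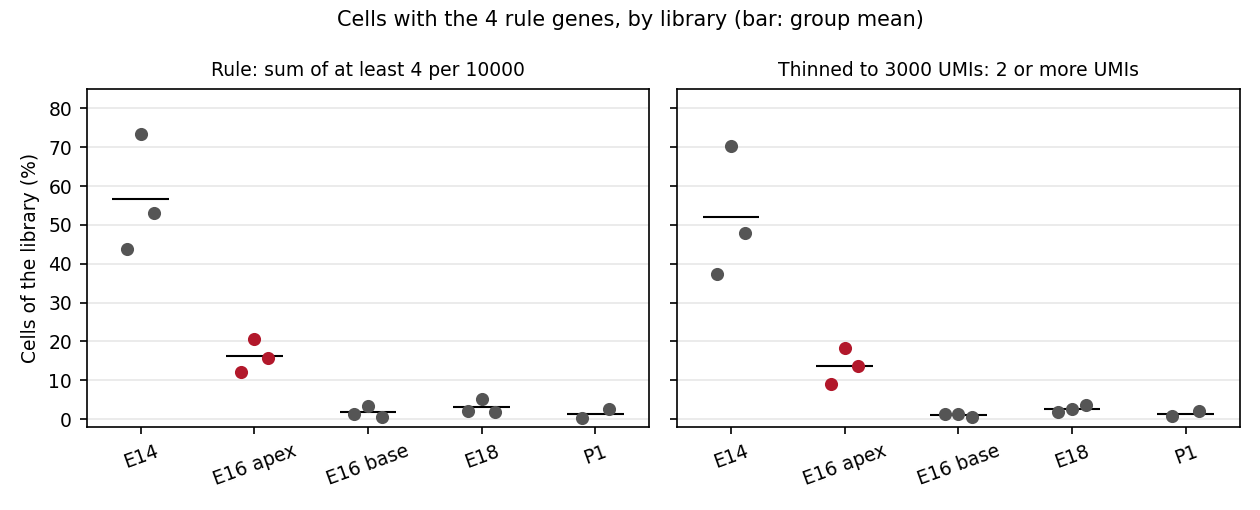
Share of cells (%, y axis) that meet the rule (left) or have 2 or more UMIs of the rule genes after thinning to 3000 UMIs (right), 1 point per library and a bar at the group mean. The apical libraries, in red, sit between 12.2% and 20.6% by the rule, below E14 and above the basal, E18 and P1 libraries.

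Over all cells of a library, Uts2b stood at 196 ± 56.5 CPM at E14, 54.1 ± 21.9 in the E16 apex and 3.41 ± 2.50 in the base (SD, n = 3 each). Neurod1 had 370 ± 223, 44.0 ± 10.5 and 8.79 ± 2.51 CPM in the same order. Rgs4 and B230216N24Rik had the same order of group means, with 42.0 ± 9.56 and 66.1 ± 10.5 CPM in the apex. At E18 Uts2b was at 5.61 ± 3.01 CPM (n = 3), which overlaps the basal libraries. B230216N24Rik at E18 ran from 6.94 to 43.4 CPM, so E18, P1 and the E16 base did not separate for it either. These levels describe the genes that chose the cells and carry no test.

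For Igfbp2, which did not choose the cells, rule-positive cells held 315, 423 and 332 CPM, cells in between 162, 177 and 113, and sum-0 cells 79.0, 102 and 45.5. All 3 libraries had the same order and the classes did not overlap. The log2 difference was 2.31 (SE 0.13, edgeR quasi-likelihood test, adjusted p = 1.4e-69). After thinning to 3000 UMIs, 63.2%, 63.4% and 55.4% of rule-positive cells had an Igfbp2 UMI, against 17.2%, 24.5% and 11.3% of sum-0 cells. Without thinning the shares were 72.5%, 83.9% and 80.8% against 26.5%, 38.8% and 21.2%. Igfbp2 was given as a marker of these cells from earlier results of these data, so its direction is not independent of them.

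In the test of rule-positive against sum-0 cells, with the library as a block, 902 of 9398 genes (9.6%) passed an adjusted p of 0.05. Without the 4 rule genes, 488 were higher and 410 lower in rule-positive cells, and over all genes tested 5.24% were called higher and 4.36% lower. With DESeq2's size factors in place of TMM, edgeR called 439 genes higher and 634 lower. DESeq2's own test called 265 genes (2.82%), and edgeR without the block 525. Leaving out apical library 2 gave 440 genes and leaving out library 3 gave 405. In the cells in between, the mean level lay between those of both classes for 440 of the 488 higher and 381 of the 410 lower genes. These genes were chosen for a gap between both classes, which favours a middle place for any other group. The counts are therefore a description with no test. The summed members held 231560, 602800 and 431110 UMIs, and the sum-0 cells 1076129, 1523981 and 1671733. Median UMIs per cell were 4634.5, 5075 and 5200.5 in members and 5159.5, 6215 and 6508 in sum-0 cells. The part of this depth gap in the results was not tested beyond the thinned values, and thinning each cell to 3000 UMIs before summing left 493 genes past the threshold.

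The largest higher differences were led by genes of bHLH factors and a phosphatase inhibitor. Ppp1r17, which encodes an inhibitor of protein phosphatases, had 17.3, 38.2 and 20.9 CPM in rule-positive cells. No UMI of it was counted in sum-0 cells, and 0, 0 and 0.963 CPM in cells in between. With 36 UMIs against 0 it was at least 40.5-fold higher (floor of 3 UMIs over the group, counting error only; adjusted p = 0.684 in DESeq2). Neurod2, a bHLH factor of the Neurod family, had 17.3, 21.6 and 25.5 CPM and likewise no UMI in sum-0 cells. It was at least 31.5-fold higher (28 UMIs against 0; adjusted p = 0.717 in DESeq2). Ppp1r17 and Neurod2 reached the tested level through the members, where they are high, so their edgeR calls are a description only. Nhlh1, a bHLH gene expressed in newly formed neurons, had 8.64, 64.7 and 60.3 CPM against 1.86, 2.62 and 1.79. Its log2 difference was 4.48 (SE 0.45), and library 1 stood well below libraries 2 and 3. Nhlh1 also reached the tested level through the members, so its call is likewise a description only.

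Further genes of this set act in adhesion, signalling and transcription. Those with low levels in sum-0 cells, such as Anxa2, Sdk1 and Grin2a, may also have reached the tested level through the members. Their differences are therefore read as a description. Anxa2, a calcium-dependent membrane-binding annexin, had 73.4, 111 and 123 CPM against 2.79, 7.22 and 6.58 (log2 4.18, SE 0.29). Sdk1, an immunoglobulin-type adhesion protein, had 25.9, 38.2 and 60.3 CPM against 2.79, 2.62 and 4.19 (log2 3.72, SE 0.44). The Groucho-type corepressors Tle2 (log2 3.30, SE 0.42) and Tle1 (log2 3.10, SE 0.42) were both higher. For Grin2a, the GluN2A subunit of NMDA receptors, the values were 30.2, 49.8 and 67.3 CPM against 0.929, 7.87 and 8.97. Dusp6, a phosphatase that acts on ERK, had 82.1, 73.0 and 78.9 CPM against 14.9, 10.5 and 7.78 (log2 2.90, SE 0.30), with no overlap. Vegfd, a growth factor of the VEGF family (log2 3.21, SE 0.46), Fam183b (log2 3.16, SE 0.54) and Dock10, an exchange factor for small GTPases (log2 2.95, SE 0.45), complete the 12 largest.

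Among the 12 largest lower differences were genes of calcium-binding and synaptic proteins. Calb2, the calcium-binding protein calretinin, had 0, 8.29 and 0 CPM in rule-positive cells and 24.2, 65.6 and 188 CPM in sum-0 cells. The 5 UMIs in members and 440 in sum-0 cells gave a log2 difference of -4.58 (SE 0.40, adjusted p = 2.6e-27). Syt17, of the synaptotagmin family, had 3 UMIs in members and 112 in sum-0 cells, a ratio of CPM of 0.0904 with a counting interval of 0.0184 to 0.271. Vsnl1, a neuronal calcium sensor, had 0, 8.29 and 4.64 CPM against 40.0, 36.1 and 55.6 (log2 -2.92, SE 0.43). Hs3st1, which sulfates heparan sulfate, was even across libraries, with 8.64, 8.29 and 9.28 CPM against 58.5, 61.0 and 80.2 (log2 -2.90, SE 0.35).

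Prph, the intermediate filament peripherin, had the highest level of the lower set, 34.5, 38.2 and 44.1 CPM against 204, 232 and 327 (log2 -2.67, SE 0.19, adjusted p = 2.2e-40, 0.27 in DESeq2). The phospholipase gene Plcb1 differed by -2.67 (SE 0.36) and Npnt, which encodes an extracellular matrix protein, by -2.98 (SE 0.50, adjusted p = 0.0595 without apical library 3). Cntnap5a, of the contactin-associated family (log2 -2.94, SE 0.33), Khdrbs2, an RNA-binding splicing factor (log2 -2.85, SE 0.44), Hhatl (log2 -3.14, SE 0.54), Csmd3 (log2 -2.73, SE 0.41) and Dlg2.1, the second feature named for the scaffold gene Dlg2 (log2 -2.81, SE 0.41), were also lower. In all 12 genes the highest member library lay below the lowest sum-0 library. Over all genes tested, 8.99% did not overlap with members higher and 11.4% with members lower.

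**Figure D2:**
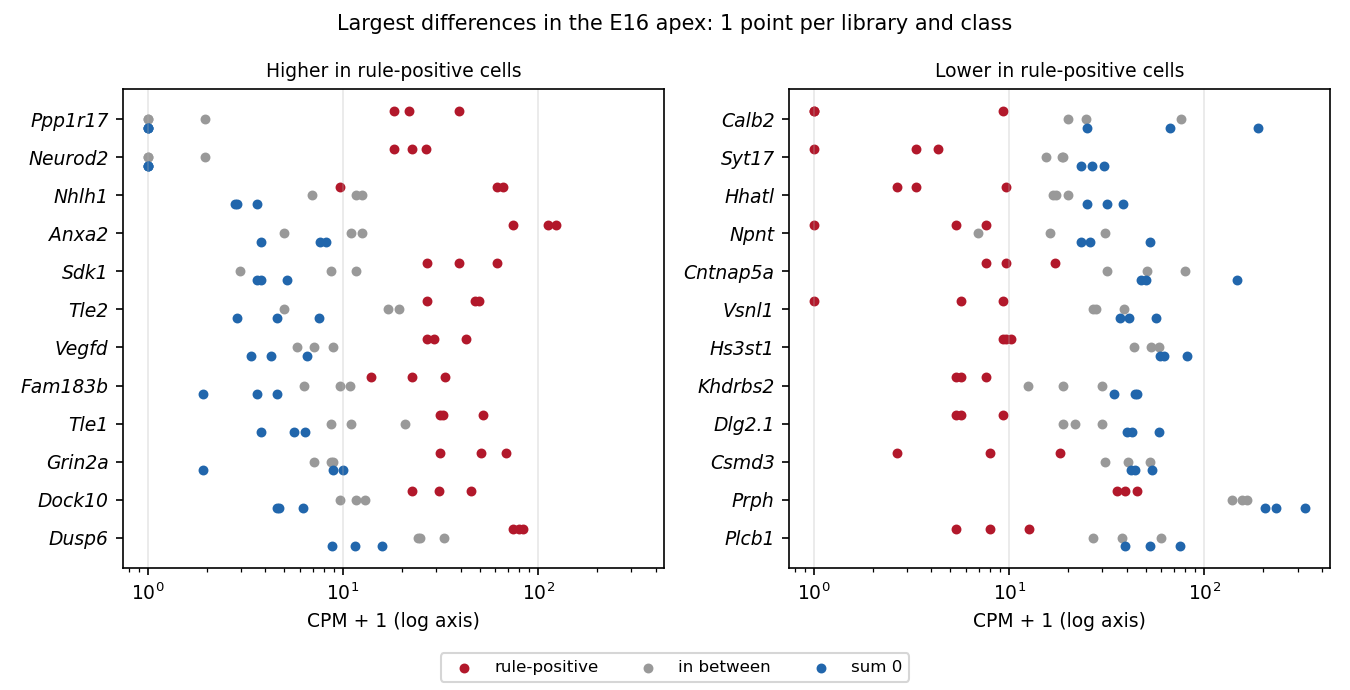
Level (CPM + 1, log axis) of the 12 largest higher (left) and 12 largest lower (right) genes in the E16 apex, 1 point per library for rule-positive (red), in-between (grey) and sum-0 (blue) cells. Red and blue points do not overlap for any of the 24 genes, from Ppp1r17 with no UMI in sum-0 cells to Calb2 at 0, 8.29 and 0 CPM in rule-positive cells.

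Of 14 tested genes of neuroblasts and early neurons, 6 were higher and 1 lower. The 6 include Nhlh1 and Ppp1r17, whose calls are a description only. This count is therefore a description too, and is not set against the 9.6% of all genes tested. Besides Nhlh1 and Ppp1r17, the bHLH gene Nhlh2 was higher, with 130, 124 and 151 CPM against 37.2, 28.2 and 33.5 (log2 2.10, SE 0.19). Insm1 (log2 1.21), a zinc finger factor of neuronal differentiation, and Sox11 (log2 0.78) were higher by less. Igfbpl1 was the lower one, with 220, 82.9 and 83.5 CPM against 273, 282 and 275 (log2 -1.29, SE 0.15). Neurog1, which starts the neuronal programme in otic neuroblasts, and Insm2 had no UMI in the 230 members. The list's median, which includes Nhlh1 and Ppp1r17 and is likewise a description, was 0.23, against -0.01 over all genes tested. Cell cycle genes were not called higher. Of 6 tested 0 were higher and 2 lower (33.3%, against 9.6% of all genes tested), Hmgb2 (log2 -1.17) and the cell cycle inhibitor Cdkn1c (log2 -0.74). The 19 cell cycle genes summed to 557 to 609 CPM in members and 819 to 945 CPM in sum-0 cells.

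Transcription factors of neurons divided, with 12 of 25 higher and 3 lower (60.0% called, against 9.6% of all genes tested). Pou4f1, a POU homeodomain factor of sensory neurons, had 194, 269 and 281 CPM against 58.5, 102 and 70.6 (log2 1.70, SE 0.14). Zeb2 had 73.4, 118 and 130 CPM against 17.7, 34.1 and 23.3 (log2 2.12, SE 0.20). Ebf1 was abundant in both classes, with 1296, 1624 and 1594 CPM against 671, 799 and 632 (log2 1.14, SE 0.11). Prox1 (log2 -0.74) and Casz1 (log2 -0.61) were lower, and Etv4 (log2 1.36), Etv5 (log2 1.34) and Bcl11a (log2 1.17) higher. The list's median was 0.19.

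Genes of growth cones and neurite outgrowth were called in 1 direction, with 6 of 20 higher and 0 lower at a median of 0.25. That is 30.0% of the list, against 9.6% of all genes tested. Stmn4, a microtubule regulator, had 713, 750 and 596 CPM against 440, 436 and 404 (log2 0.72, SE 0.11). The differences of Gap43 (log2 0.50), Basp1 (log2 0.46), Dpysl5 (log2 0.45), Marcks (log2 0.44) and Cd24a (log2 0.36) were small, and both Gap43 and Cd24a overlapped between classes. Of 15 neurofilament and axonal cytoskeleton genes 20.0% passed. Only Nefm was higher (log2 0.51, SE 0.16), with Prph and the dynein gene Dync1i1 (log2 -1.81) lower.

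Axon guidance and adhesion genes moved in both directions. Of 27 guidance genes 7 were higher and 3 lower (37.0% called, against 9.6% of all genes tested). The secreted repellent Sema3a had 173, 184 and 195 CPM against 58.5, 68.2 and 70.6 (log2 1.5, SE 0.15). Its relative Sema3e had 69.1, 82.9 and 51.0 CPM against 127, 173 and 183 (log2 -1.24, SE 0.18). Among plexins, the semaphorin receptors, Plxna2 (log2 1.93), Plxna4 (log2 1.21) and Plxnc1 (log2 1.17) were higher and Plxna1 (log2 -1.23) lower. The netrin receptors Unc5c (log2 0.65) and Unc5d (log2 -1.05) differed in opposite directions. Of 19 adhesion genes 52.6% passed. Higher were 8, among them Pcdh17 (log2 1.41), Pcdh7 (log2 1.24) and Cdh13 (log2 1.10), and Cadm2 (log2 -2.40) and Cadm1 (log2 -0.58) were lower.

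Calcium-binding proteins spread to both sides, with 7 of 14 higher and 4 lower (78.6% called, against 9.6% of all genes tested). Calb1, the calcium buffer calbindin, had 203, 323 and 253 CPM against 40.0, 49.9 and 52.6 (log2 2.50, SE 0.15), opposite to calretinin. Necab2 (log2 1.36) and Necab1 (log2 -2.18), 2 neuronal calcium-binding relatives, also differed in opposite directions. S100a1 (log2 -1.59) was lower.

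In the lists of the release machinery, ion channels and transmitter receptors described next, between 13.3% and 33.3% of genes passed, against 9.6% of all genes tested, and over the 4 lists more passed as lower than as higher. Of 23 synaptic vesicle genes 3 were higher and 3 lower. Slc17a6, the vesicular glutamate transporter VGLUT2, had 130, 194 and 169 CPM against 36.2, 42.0 and 40.1 (log2 2.12, SE 0.17), and Cplx2 (log2 1.01) and Syt1 (log2 0.70) were higher. Syt7 had 34.5, 43.1 and 69.6 CPM against 105, 151 and 190 (log2 -1.58, SE 0.19), and the active zone gene Bsn was lower by less (log2 -0.96). Potassium channel genes gave 1 higher and 4 lower of 16 (Kcna1 log2 0.91; Kcnq3 log2 -1.23), and HCN and calcium channel genes 0 higher and 2 lower of 15 (Cacna1d log2 -1.92; Cacna2d3 log2 -1.04). Of 12 glutamate and GABA receptor genes, Grin2a was higher and Gabra2 (log2 -1.41), Gria3 (log2 -0.82) and Gria2 (log2 -0.62) were lower. Their medians lay between -0.19 and -0.03, beside -0.01 for all genes.

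**Figure D3:**
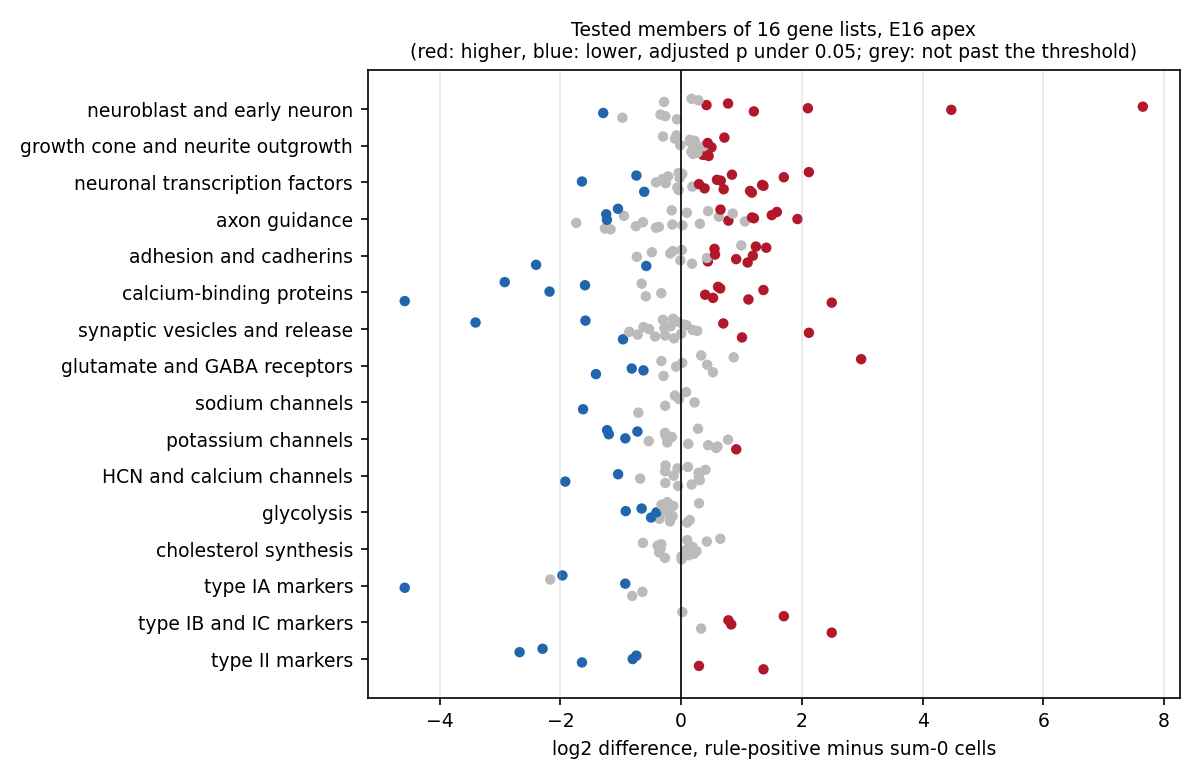
log2 difference (x axis) between rule-positive and sum-0 cells of the E16 apex for each tested member of 16 gene lists (rows), with genes past the threshold in red (higher) or blue (lower) and the others in grey. Calcium-binding proteins spread to both sides, from Calb2 at -4.58 to Calb1 at 2.50. The neuroblast points furthest to the right are Ppp1r17, with no UMI in sum-0 cells, and Nhlh1 at 4.48, and both are a description only.

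Many calls of list genes were lost when 1 library was left out. Of 95 named genes past the threshold, 38 lost the call without at least 1 apical library, with adjusted p then from 0.0512 to 0.678 and no change of direction. Without library 3, 32 were lost, among them Plxna2, Pcdh17, Pcdh7, Kcna1, Dync1i1 and Gabra2, and Pcdh7 then differed by 0.61 and Pcdh17 by 0.71. Without library 2, 27 were lost, among them Gria3, Cacna2d3, Ngfr, Pfkp and Tectb. Whichever library was left out, 10 genes were lost, which include Gap43, Marcks, Cd24a, Nefm, Prox1, Gria2, Pcsk1n and Pvalb.

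In the pathways of the marker genes, Rgs6 was lower, with 43.2, 24.9 and 44.1 CPM against 195, 136 and 214 (log2 -2.28, SE 0.21). Rgs4 itself is a rule gene, and of 9 other tested genes of this family 0 were higher and 2 lower (Rgs6 and Rgs10, log2 -0.97). That is 22.2%, against 9.6% of all genes tested. The receptor gene Igf1r had 104, 108 and 169 CPM against 29.7, 37.4 and 45.5 (log2 1.77, SE 0.19). Pappa, a protease that cleaves IGF-binding proteins, had 8.64, 9.95 and 20.9 CPM against 42.7, 61.7 and 101 (log2 -2.37, SE 0.31), and Igfbp5 was higher (log2 0.69). Uts2r, the urotensin receptor gene, had no UMI in members. Among neuropeptide-related genes the granin Chgb had 574, 660 and 763 CPM against 246, 233 and 267 (log2 1.47, SE 0.10), while Chga (log2 -0.58) and Pcsk1n (log2 -0.34) were lower. Of 7 neurotrophin and GDNF receptor genes 0 were higher and 2 lower (28.6% called, against 9.6% of all genes tested), Ngfr (log2 -0.80) and Gfra4 (log2 -1.21).

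Of the signalling, stress and metabolic lists, 3 had 23.5% to 38.5% of their genes past the threshold, against 9.6% of all genes tested, and the cholesterol list had none. In 13 genes of BMP, Notch, FGF and Wnt signalling, Dusp6 was higher and 4 were lower, among them Id1 (log2 -0.87) and Id3 (log2 -0.49), targets of BMP signals. Of 15 immediate early and stress genes 4 were higher and 0 lower, led by Gadd45g (log2 1.36) and Jun, with 376, 468 and 492 CPM against 201, 208 and 201 (log2 1.19, SE 0.11). These genes also respond to tissue dissociation, and their part in the other results was not tested. Of 17 glycolysis genes 4 were lower, including Pfkl (log2 -0.92), Pfkp (log2 -0.65) and Gapdh (log2 -0.50). Of 16 cholesterol synthesis genes 0 passed in either direction, by edgeR at adjusted p.

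Markers of the later subtypes of spiral ganglion neurons were compared as well. Type I neurons, subtypes IA, IB and IC, contact inner hair cells, and type II neurons contact outer hair cells. Of 6 tested IA markers 0 were higher and 3 lower, Calb2, Rxrg (log2 -1.97) and Mdga1 (log2 -0.92). Of 6 IB and IC markers 4 were higher and 0 lower (66.7% called): Calb1, Pou4f1, Lypd1 and Ntng1 (log2 0.78). Lypd1 had 812, 674 and 999.7 CPM against 401, 534 and 463 (log2 0.83, SE 0.10, adjusted p 0.996 in DESeq2). Of 7 type II markers 5 were lower, among them Prph and Th (log2 -2.29), and 2 were higher, Etv4 and Gata3 (log2 0.30). The summed markers ran from 292 to 393 CPM in members and 704 to 897 in sum-0 cells for IA, and from 1658 to 2076 against 816 to 1032 for IB and IC.

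Markers of other cell types were low in both classes, apart from genes that neurons also express. Defining markers with no UMI in the 230 members were Sox10, Foxd3, Cdh19 and Egfl8 of glia, Col1a1 and Prrx1 of mesenchyme, Pou4f3, Gfi1 and Myo7a of hair cells, and Cdh5, Cldn5 and Flt1 of endothelium. The 10 glial markers summed to 64.7 to 117 CPM in members and 67.6 to 77.1 in sum-0 cells, and the 10 mesenchymal ones to 64.8 to 104 and 40.9 to 68.2, with Pou3f4 higher (log2 1.23). Among hair cell and supporting cell markers, Pvalb (log2 0.61) and Tectb (log2 1.28) were higher and Cib2 (log2 -0.75) and Sparcl1 (log2 -1.66) lower. Haemoglobin RNA of blood cells stood apart more by library than by class: Hbb-bs was at 238, 264 and 46.4 CPM in members and 242, 394 and 53.2 in sum-0 cells (log2 -0.36, adjusted p = 0.0761). None of 8 mitochondrial transcripts passed the threshold. Neuronal genes were high, with 11 markers of spiral ganglion neurons summing to 9135 to 10153 CPM in members and 9064 to 9695.0 in sum-0 cells. By these markers the cells were neurons, and a non-neuronal class was not analysed here. Of the 5441 cells, 12 shared a barcode sequence with a cell of another library (6 barcodes), none of them a member.

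The same rule was applied at E14, in libraries that the apical comparison does not use. There 1947 of 11474 genes (17.0%; 8.98% higher and 7.99% lower) passed between rule-positive and sum-0 cells. Of the 488 genes higher in the apex, 284 (58.2%) were also higher at E14 and 26 lower, where 9.03% of all genes tested in both were higher at E14. Of the 410 genes lower in the apex, 226 (55.1%) were also lower at E14 and 11 higher, with 9.11% of all genes lower. The shared genes made up 33.5% of the higher and 26.4% of the lower genes of E14. Nhlh1 differed by 5.75 at E14 and 4.48 in the apex, and Anxa2 by 3.73 and 4.18. The test of the difference between both splits called 453 genes (3.95%), among them Lypd1, with 0.83 in the apex and -2.03 at E14, Pvalb, with 0.61 and -1.74, and Igfbpl1, with -1.29 and 1.29. Without E14 library 3 the E14 split called 936 genes and the difference 215, and without apical library 2 or 3 the difference called 293 and 263. Cholesterol synthesis genes were higher in E14 members in 13 of 16 cases, and in apical members in 0 of 16, a difference between lists that was not tested.

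**Figure D4:**
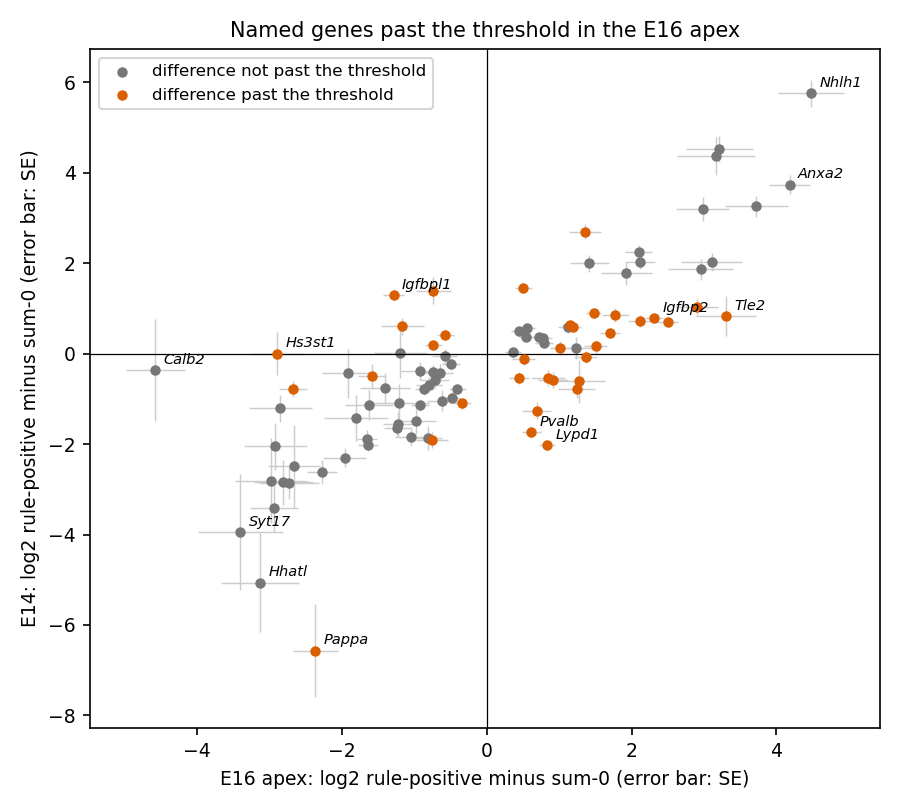
log2 difference between rule-positive and sum-0 cells in the E16 apex (x axis) and at E14 (y axis), each with its SE, for named genes past the threshold in the apex that had UMIs in both classes. Orange points passed the test of the difference between ages: Lypd1 and Pvalb lie below 0 at E14 and above 0 in the apex, and Igfbpl1 the other way round.

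The genes that set the apical classes apart were also followed between whole E14 and E16 basal libraries, a comparison with no apical cell in it, in which 2951 of 11429 genes (25.8%; 12.3% higher and 13.5% lower at E14) passed. Of 483 apical higher genes tested there, 370 (76.6%) were higher at E14 than in the E16 base, against 12.1% of all genes, and 10 were lower. Of 410 apical lower genes, 348 (84.9%) were lower at E14, against 14.1% of all genes, and 1 was higher. Ppp1r17 averaged 170 ± 78.8 CPM at E14, 4.03 ± 2.36 in the whole apex and 0.251 ± 0.435 in the base (SD, n = 3). Dusp6 differed by 4.68 between E14 and the base, and Calb2 by -7.59.

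The basal libraries held 21 rule-positive cells, too few for a close comparison. There 166 of 9398 genes (1.77%) passed between classes, and the difference between the apical and basal splits passed for 6 genes (0.0638%). The median log2 of all genes tested was -0.54 in the basal split and -0.01 in the apical one, so the basal split was off centre. The basal split called 371 genes without basal library 2, 63 and 74 without basal libraries 1 and 3, and 106 and 103 without apical libraries 1 and 3, and the difference called 215 without basal library 2 and 3 without apical library 3. Between the rule-positive cells of apex and base 1 of 3026 genes (0.033%) passed, named here after its values were seen: the calcium-binding gene S100a11, with 8.64, 13.3 and 6.96 CPM in the apex and 303, 198 and 98.6 in the base (log2 -4.11, SE 0.53, adjusted p = 8.62e-05). Those basal values rest on 3, 9 and 1 UMIs. Leaving out any apical library left 0 genes, and leaving out basal library 2, which gave 16 of the 21 cells, left 44.

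A stretch of chromosome 5 set the members apart beyond the named genes, and was chosen after its values were seen. Kcnip4, which encodes a protein that binds A-type potassium channels, spans 1135 kb on the minus strand at chr5:48389502-49524907. Its own count did not pass the threshold in the apex, with 21.6, 21.6 and 51.0 CPM in members and 18.6, 32.8 and 58.6 in sum-0 cells (log2 -0.26, SE 0.27, adjusted p = 0.696). The table holds 24 unnamed features inside it on the same strand, none overlapping an annotated Kcnip4 exon. Of these, 7 had enough UMIs to be tested, and they reached that level through the members, where they are high, so no count of calls is given for them.

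Nearest the annotated start is 2900064K03Rik, with 17.3, 33.2 and 74.2 CPM in members and 0, 0.656 and 1.20 in sum-0 cells (56 UMIs against 3). Gm43316 had 17.3, 31.5 and 48.7 CPM against 0, 0 and 2.39 (44 UMIs against 4; log2 5.09, SE 0.58) and Gm43318 had 4.32, 24.9 and 48.7 against 0, 1.31 and 1.20 (37 UMIs against 4). The features were then divided by position along the gene. The boundary was drawn after their values were seen, so both sums are a description with no test. The 16 within 600 kb of the start summed to 90.7, 206 and 422 CPM in members, 7.93, 32.1 and 29.8 in cells in between, and 1.86, 5.91 and 12.0 in sum-0 cells. The 8 features from 679 to 990 kb summed to 8.64, 19.9 and 64.9 CPM in members and 6.50, 19.0 and 75.4 in sum-0 cells, which overlap. The 16 features stood at 55.7, 175 and 69.4 CPM in whole E14 libraries and at 5.39, 6.03 and 5.27 in whole basal ones. At E14 the count of Kcnip4 itself also differed between classes (log2 3.93).

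**Figure D5:**
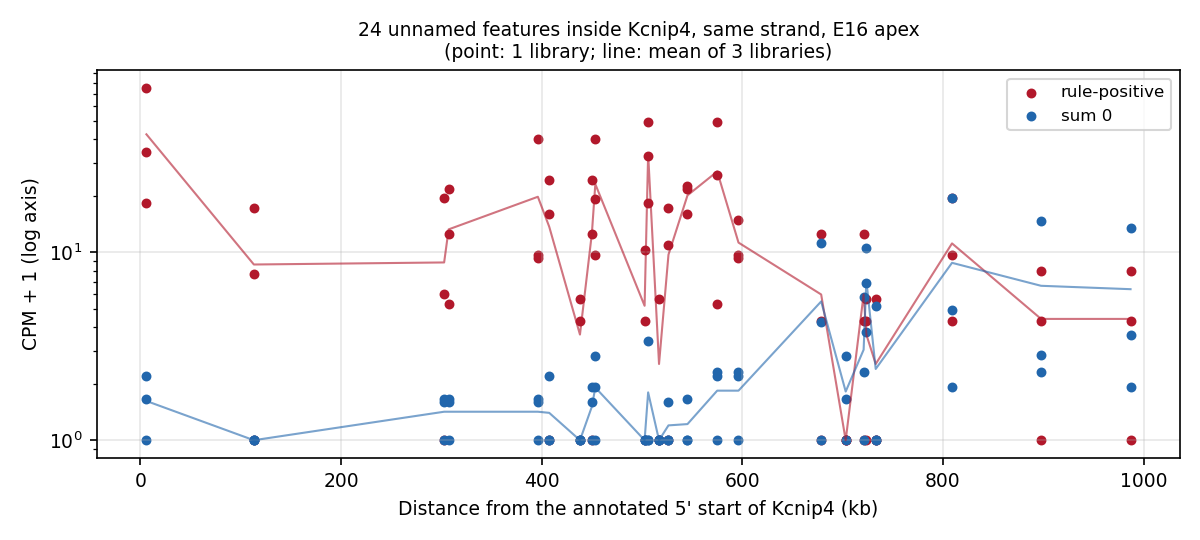
Level (CPM + 1, log axis) of 24 unnamed features inside Kcnip4 by distance from its annotated 5′ start (kb), 1 point per apical library, with lines through the means of rule-positive (red) and sum-0 (blue) cells. The lines stand apart over the 16 features within 600 kb and meet over the 8 features beyond 679 kb, a division drawn after the values were seen.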

How the data were processed

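The members, gene lists and comparisons were chosen with earlier results of these data known. Per the labels, libraries were 10x 3′ (v3.1) and the submitters' processing notes name Cell Ranger 3.0.1, Seurat 3.2 and mm10 (GRCm38), with no filter given. The authors deposited raw UMI counts per gene and cell, and natural log values of 1 plus the count per 10000. The count table ends after 17999 of 26655 genes. The other 8656 genes (28.2% of UMIs) were computed back from the deposited log values, whole within 0.001. The number that ends a cell's name was read as the sample number of GEO's description field, a link the labels never spell out. No cell was removed (5441 cells, 34122909 UMIs) and doublets were not called.

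Counts were summed per library and class and tested with edgeR 4.0.16 (TMM, filterByExpr, library block, E16 portions in 1 fit, Benjamini-Hochberg over all genes tested). An added fit with all 14 libraries gave the E14 split. The estimated prior degrees of freedom were infinite, so each gene was given the spread of a trend over expression level. A gene's own variation between libraries then does not enter its edgeR p-value, which limits how very small values can be read. DESeq2 1.42.0, limma 3.58.1, thinning and other thresholds were alternatives. On simulated counts with 200 changed genes, edgeR recovered 75% of changes of log2 1 and 99% of log2 2 in the apical comparison (9152 genes). The changed genes had at least 20 CPM over the summed E16 classes, and all genes were drawn with 1 common spread. These rates therefore do not cover genes of lower level, such as Ppp1r17 and Neurod2, or genes of wider spread.

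Libraries of 1 portion are separate litters. Members and sum-0 cells of 1 library share it, which the block holds. Replicate numbers of apex and base were not used as pairs in the main fit of the members. Deviations of libraries with the same number from their portion means correlated by 0.029, 0.052 and 0.078. The basal sums rest on 3, 16 and 2 cells, so these values cannot tell whether a number marks a shared litter.

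Named genes are those past the threshold with at least 20 CPM in the higher class and 1 direction in 3 libraries, the 12 largest up and the 12 largest down, without rule genes, mitochondrial, ribosomal, haemoglobin and Y-linked genes, Xist, Tsix and unnamed models, plus up to 4 members of each of 36 lists by adjusted p. Other list members past the threshold were named after their values were seen. Some list members are not reported here.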

Additional observations from a re-analysis of the deposited data

Results flagged for a closer look

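The fit with all libraries tested, gene by gene, whether the difference between rule-positive and sum-0 cells was the same in the apex and at E14. Values below are the apical log2 difference minus that of E14, with edgeR's adjusted p under 0.05 for each gene, and the 24 largest genes and the list members past the threshold in the apex were examined. The subtype markers and calcium-binding genes Lypd1 (2.84), Pvalb (2.33), Calb1 (1.78), Etv4 (1.43) and Pou4f1 (1.23) had more positive values in the apex, and Prph (-1.91) and Prox1 (-2.15) more negative ones. Among transcription and growth genes the values were 2.45 for Tle2, 1.85 for Dusp6, 0.49 for Ebf1, 1.36 for Rbfox3, -2.59 for Igfbpl1 and -0.96 for Gap43. Synaptic, channel and cytoskeletal genes gave 1.37 for Slc17a6, 0.86 for Cplx2, -1.10 for Syt7, 1.47 for Kcna1 and 0.61 for Nefm. Guidance and adhesion genes gave 1.32 for Sema3a, 2.00 for Pcdh7 and -1.0 for Cadm1, and the heparan sulfate gene Hs3st1 gave -2.91. In the IGF and peptide lists the values were 1.51 for Igfbp2, 0.90 for Igf1r, 4.18 for Pappa (SE 1.20), 1.93 for Igfbp5, 0.56 for Chgb and 0.74 for Pcsk1n. The others were 1.13 for Sfrp1, -0.96 for Cdkn1c, -1.80 for Hmgb2, 0.58 for Jun, -1.36 for Gadd45g, 0.97 for Fos and 1.87 for Tectb. A positive value need not mean higher in apical members. Pappa (-2.37), Sfrp1 (-0.76) and Pcsk1n (-0.34) were lower in them, and lower by more in E14 members. Gap43 (0.50) and Gadd45g (1.36) were higher in apical members, and higher by more in E14 members.

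The difference between the apical and basal splits passed for 3 named genes: Prph (-3.48), Igfbp2 (-2.17) and Pvalb (1.62). In the base these rest on 3, 16 and 2 rule-positive cells. Prph there had 0, 922 and 0 CPM in rule-positive cells, all of it from basal library 2, and Pvalb 0, 1999 and 0 CPM. Igfbp2 had 1112, 417 and 1282 CPM there, against 21.5, 29.1 and 16.1 in basal sum-0 cells. Over all genes tested the median log2 was -0.54 in the basal split and -0.01 in the apical one. With DESeq2's size factors the medians were -0.28 and -0.08. Every apex minus base value includes this offset, and its part in the calls was not tested.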

How the results depend on the processing

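The apical count of 902 genes moved to 265 with DESeq2 (320 with apical libraries only, added after seeing the data), 525 with no replicate block, 528 with cells of at least 5000 UMIs and 493 with thinned sums, and leaving out 1 library gave 405 (without apex 3) to 1076. No named gene past the threshold changed direction in any setting run. Of 95 such genes, 46 passed in every setting, and of the 24 largest 19 did, with 3 lost only by DESeq2 (Ppp1r17, Neurod2, Prph). The basal count of 166 (45 higher, 121 lower; 69 and 53 with DESeq2 size factors) moved to 107 with DESeq2, 92 with no replicate block, 31 at 5000 UMIs, 292 with thinned sums, 38 and 466 with sums of at least 2 and 8, and 63 to 371 leaving out 1 library. The apex minus base difference of 6 genes moved to 2 with DESeq2, 2 with no replicate block, 167 with thinned sums, 77 with classes from thinned cells, 12 and 180 with sums of at least 2 and 8, and 3 to 215, the latter without basal library 2. Members of apex and base differed in 1 gene, 4 with no filter, 5 at 5000 UMIs and 0 to 44 leaving out 1 library. A replicate block by number also gave 1 gene, and the share of cells, which has no test, differed by 12.6 points, or 27.5 with 1 or more UMIs. The E14 count ran from 936 to 1630 and the apex minus E14 count from 215 to 415 leaving out 1 library. The cause of these moves was not tested. Genes with few UMIs are limited by depth: members held 231560 to 602800 UMIs per library.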
